A study of Mus musculus with 2 samples.

Results

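Periostin (Postn), the tenascins Tnc, Tnn and Tnxb, the thrombospondins Thbs1, Thbs2, Thbs3, Thbs4 and Comp, and Sparc encode matricellular proteins. These 10 genes, of 55416 gene IDs in the count table, were read in 2 mouse rhabdoid tumors. The genes were selected on values of these same 2 libraries, so their levels and ratios are given as a description, with no test.

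Matricellular proteins are secreted into the extracellular matrix, where they tune how cells attach to collagen and fibronectin instead of bearing load themselves. They are low in most resting adult tissue and are made in embryonic mesenchyme, tendon, bone, healing wounds and tumor stroma. Tenascins are large multimers that loosen integrin contacts, thrombospondins assemble as trimers or pentamers that bind collagen, growth factors and calcium, and periostin and SPARC take part in the assembly of collagen fibrils.

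The tumors arose in Dppa3-cre::Smarcb1 Fl/+ mice and were read by bulk RNA-sequencing. In these animals Cre recombinase is made from the Dppa3 locus, which is active in primordial germ cells, and 1 Smarcb1 allele is floxed, on a C57BL/6 background. Smarcb1 belongs to the SWI/SNF chromatin remodelers, and its loss drives rhabdoid tumors. The tumors were not sorted, so RNA of stroma and neighbouring tissue was read with that of tumor cells. By the study's account, the intracranial tumor lay at the trigeminal nerve and the extracranial tumor was facial, in the maxillary region. Both tumors were classified MYC. The ages of the animals were not given in the labels, and no normal tissue was analysed here. With 1 library per location, no difference could be set against a spread between replicates, and every interval below is a 95% interval that covers counting error only.

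The libraries held 34545846 and 26915696 counts, intracranial first, as everywhere below. Smarcb1, the targeted gene, was read at 10.5 and 19.8 CPM (counts over the scaled library size, in the usual unit), so its transcripts were present in both. The study treats Postn as a marker of extracranial tumor cells, from single-cell data on Smarcb1-negative tumor clusters of Rosa26-cre and Sox2-cre mice. In the unsorted bulk RNA of these Dppa3-cre tumors, Postn was higher in the intracranial-labelled library. The measure and the mouse models differ, so these values cannot be set directly against that marker. The libraries are called by their labels throughout. Surface epithelium was unevenly present. The 8 keratinocyte genes summed to 21769 and 3.06 CPM, with Krt5, Krt6a, Trp63 and Dsg3 at 0 counts in the extracranial-labelled library, and all 8 were higher in the intracranial-labelled library. The 5 of 6 gland genes matched, mucin Muc5b among them, summed to 2571 and 0.0374 CPM, and 4 of them were at 0 in the extracranial-labelled library. Krt13 alone had 366709 and 5 counts. Keratinocyte and gland transcripts were thus read almost only in the library labelled intracranial, whose recorded site is the trigeminal nerve. Very few were read in the library whose recorded site is maxillary. Whether each library matches its recorded site was not tested. The part of this epithelium in the values of the matricellular genes was not tested. With bulk RNA, fewer cells of a type and less RNA per cell cannot be told apart.

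Sparc and Postn were among the most abundant transcripts of both tumors, and 7 of the 10 genes were higher in the intracranial-labelled library. A ratio is the TMM-scaled count of the extracranial-labelled library over that of the intracranial-labelled library, on a log2 scale, so negative values are higher in the intracranial-labelled library. A gene was called when the whole interval of its ratio lay beyond 4-fold, and all 10 genes passed the filter of 10 counts over both libraries, the lowest having 1231. Tnn and Comp were called, both higher in the intracranial-labelled library, so 2 of 10 matricellular genes were called in that direction, where 5.41% of all 21977 genes tested were. In the other direction 0 of 10 were called, against 1.78% of all genes. At a 2-fold limit the counts were 5 of 10 (Tnc, Tnn, Thbs1, Thbs3 and Comp) and 0 of 10, against 9.77% and 5.86% of all genes. The interval left 1-fold in 7 of 10 genes on the intracranial side and in Tnxb, Thbs2 and Thbs4 on the extracranial side, where 32.2% and 29.2% of all genes did. Because these ratios chose the genes, the counts show nothing beyond that choice. The median log2 ratio of the 10 genes was -1.06, beside -0.04 for all genes tested.

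**Figure D1:**
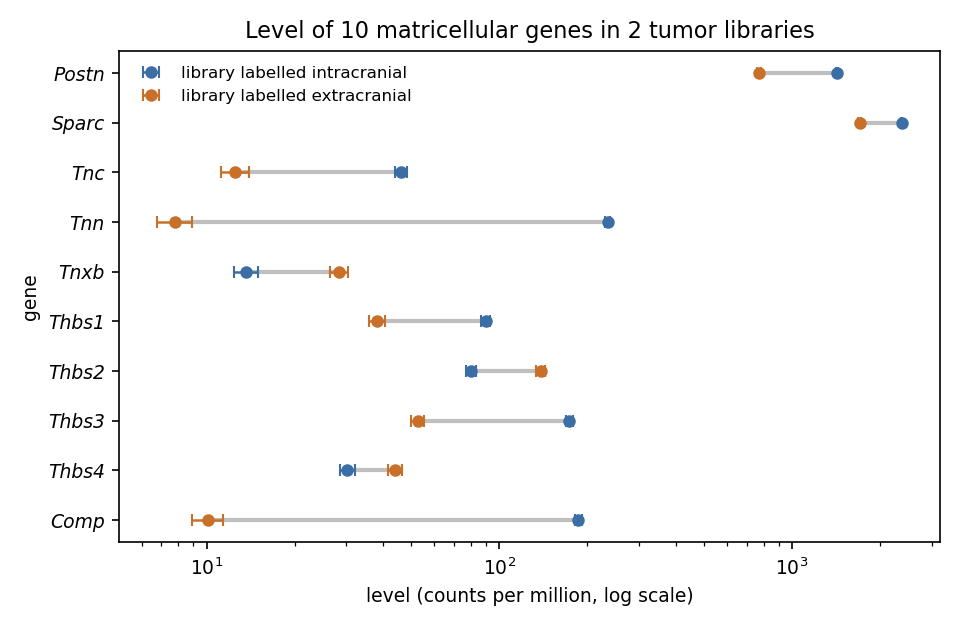
Level of each of the 10 genes (CPM, log axis) in the intracranial-labelled library (blue) and the extracranial-labelled library (orange), with 95% counting intervals as bars and a grey line joining the 2 libraries. Tnn and Comp span the widest distance, from 235 and 186 CPM to 7.77 and 10.1 CPM, whereas Tnxb, Thbs2 and Thbs4 have the orange point on the right.

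The tenascins differed most between the libraries and did not move together. Tnn and Tnc were higher in the intracranial-labelled library and Tnxb in the extracranial-labelled library.

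Tnn encodes tenascin-N, also called tenascin-W, a tenascin of osteogenic and tumor stroma that is low in most adult tissue. It was read 8150 times in the intracranial-labelled library and 208 times in the extracranial-labelled library. Its level was 235 (229 to 240) and 7.77 (6.75 to 8.90) CPM, a log2 ratio of -4.92 (-5.12 to -4.72), or 30.2-fold (26.3 to 34.8) higher in the intracranial-labelled library. This was the largest ratio of the 10 genes.

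Tnc encodes tenascin-C, the tenascin of embryonic mesenchyme, wounds and tumors. It had 1601 and 335 counts, or 46.1 and 12.5 CPM. Its log2 ratio was -1.88 (-2.05 to -1.71), 3.68-fold higher in the intracranial-labelled library, with an interval that reached across 4-fold, so it was not called. A noncoding gene, 8030451A03Rik, overlaps Tnc exons on the opposite strand over 176 bases and had 4 and 1 counts.

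Tnxb encodes tenascin-X, which spaces collagen fibrils in loose connective tissue and skin. It ran the other way, with 474 and 757 counts, or 13.6 and 28.3 CPM. The log2 ratio was 1.05 (0.88 to 1.22), 2.07-fold higher in the extracranial-labelled library. A pseudogene, Cyp21a2-ps, overlaps it over 3 bases and had 3 and 12 counts.

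Summed over Tnc, Tnn and Tnxb, the tenascins reached 294 and 48.6 CPM, 6.06-fold higher in the intracranial-labelled library (log2 ratio -2.60, -2.68 to -2.52). The make-up of the family differed. Tnn supplied 79.7% (78.9 to 80.5) of tenascin counts in the intracranial-labelled library and 16% (14.0 to 18.1) in the extracranial-labelled library. Tnxb supplied 4.64% (4.24 to 5.06) and 58.2% (55.5 to 60.9), and Tnc 15.7% and 25.8%. A share within a family does not depend on how the libraries were scaled. These are shares of counts, not per length, and Tnxb has the longest exons of the 3. Of the counts of Tnc and Tnxb alone, Tnxb held 22.8% and 69.3%.

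**Figure D2:**
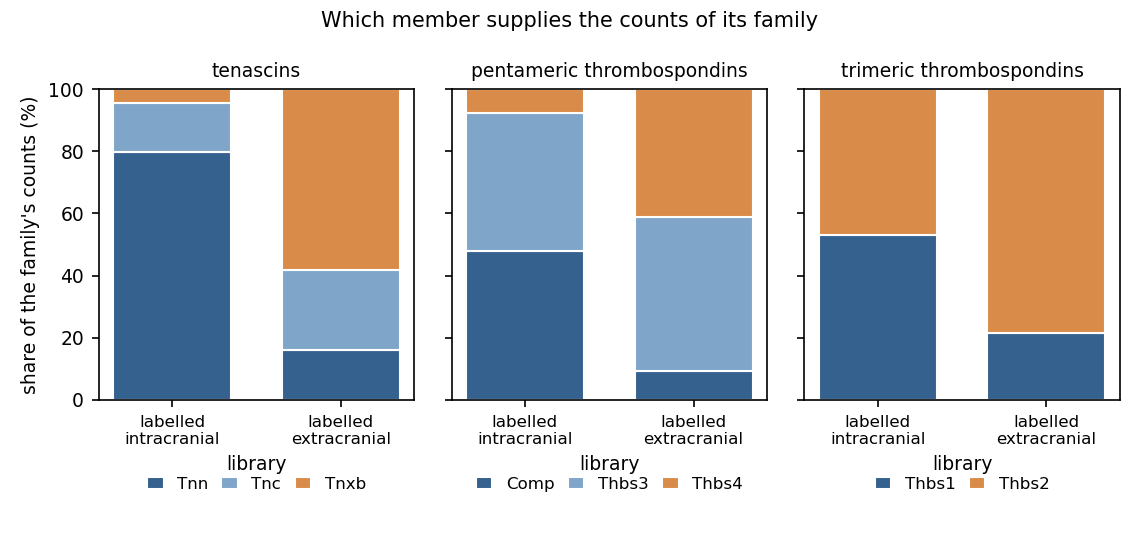
Share of the counts of a family (%) that came from each of its genes, as stacked bars from 0 to 100, for the tenascins, the pentameric thrombospondins and the trimeric thrombospondins in each library. The largest block changes from Tnn (79.7%) to Tnxb (58.2%) in the tenascins, Comp shrinks from 47.8% to 9.45%, and Thbs2 grows from 47.1% to 78.4%.

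Among the thrombospondins, Comp stood apart. Thrombospondins 3, 4 and COMP form pentamers and, unlike thrombospondins 1 and 2, lack the repeats that activate TGF-beta or block vessel growth. Comp encodes cartilage oligomeric matrix protein, which binds collagen in cartilage and tendon. It was read 6474 and 270 times, or 186 (182 to 191) and 10.1 (8.92 to 11.4) CPM. The log2 ratio was -4.21 (-4.39 to -4.03), 18.5-fold (16.3 to 20.9) higher in the intracranial-labelled library.

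Thbs3, a pentameric thrombospondin of bone and cartilage, had 6030 and 1409 counts, or 174 and 52.7 CPM. Its log2 ratio was -1.72 (-1.81 to -1.64), 3.30-fold higher in the intracranial-labelled library and under the 4-fold limit. Thbs3 shares 318 bases of exon, 6.59% of its exon length, with Mtx1 on the opposite strand, and Mtx1 had 821 and 716 counts. Whether reads were counted by strand was not given in the sources used here, so how reads over the shared bases were counted is uncertain for both genes.

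Thbs4, found in tendon, muscle and nerve, was in the other direction, with 1051 and 1177 counts, or 30.2 and 44.0 CPM. Its log2 ratio was 0.54 (0.42 to 0.66), 1.45-fold higher in the extracranial-labelled library. The summed pentameric genes reached 390 and 107 CPM (log2 ratio -1.87, -1.93 to -1.81), 3.66-fold higher in the intracranial-labelled library. Within the group, Comp went from 47.8% (46.9 to 48.6) to 9.45% (8.41 to 10.6) of the counts and Thbs4 went from 7.75% (7.31 to 8.22) to 41.2% (39.4 to 43.0). Thbs3 supplied a like part of both, 44.5% and 49.3%.

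The trimeric genes moved in opposite directions and cancelled. Thbs1, a platelet and stromal protein that activates latent TGF-beta and restrains vessel growth, had 3120 and 1021 counts, or 89.8 and 38.2 CPM. Its log2 ratio was -1.23 (-1.34 to -1.13), 2.35-fold higher in the intracranial-labelled library. Thbs2, a fibroblast protein that also restrains vessel growth and clears matrix proteases, had 2775 and 3699 counts, or 79.9 and 138 CPM, and its log2 ratio was 0.79 (0.72 to 0.86), 1.73-fold higher in the extracranial-labelled library. Their sum was 170 and 176 CPM, a log2 ratio of 0.06 (0.00059 to 0.11), whose sign changed to -0.022 when called genes were left out of the library size and to -0.035 over fibrillar collagen. Thbs2 supplied 47.1% (45.8 to 48.4) and 78.4% (77.2 to 79.5) of the trimeric counts. A noncoding gene overlapping Thbs1 over 208 bases, Gm29233, had 0 counts in both libraries.

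Sparc and Postn led the 10 genes and differed least among the genes higher in the intracranial-labelled library. Sparc encodes osteonectin, a collagen chaperone of the matrix, and had 82267 and 45551 counts, or 2368 and 1702 CPM. Its log2 ratio was -0.48 (-0.49 to -0.46), 1.39-fold. Postn, a ligand of integrins that promotes collagen cross-linking, had 49555 and 20657 counts, or 1426 and 772 CPM. Its log2 ratio was -0.89 (-0.91 to -0.86), 1.85-fold. Postn made up 37.6% and 31.2% of the counts of both genes.

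Together the 10 genes took 0.467% and 0.279% of all counts (4648 and 2806 CPM), a log2 ratio of -0.73 (-0.74 to -0.72). For scale, Col1a1, Col1a2 and Col3a1, the chains of the main fibrillar collagens, summed to 3939 and 4195 CPM, a log2 ratio of 0.09 (0.08 to 0.10). The matricellular sum was thus lower, relative to fibrillar collagen, in the extracranial-labelled library.

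**Figure D3:**
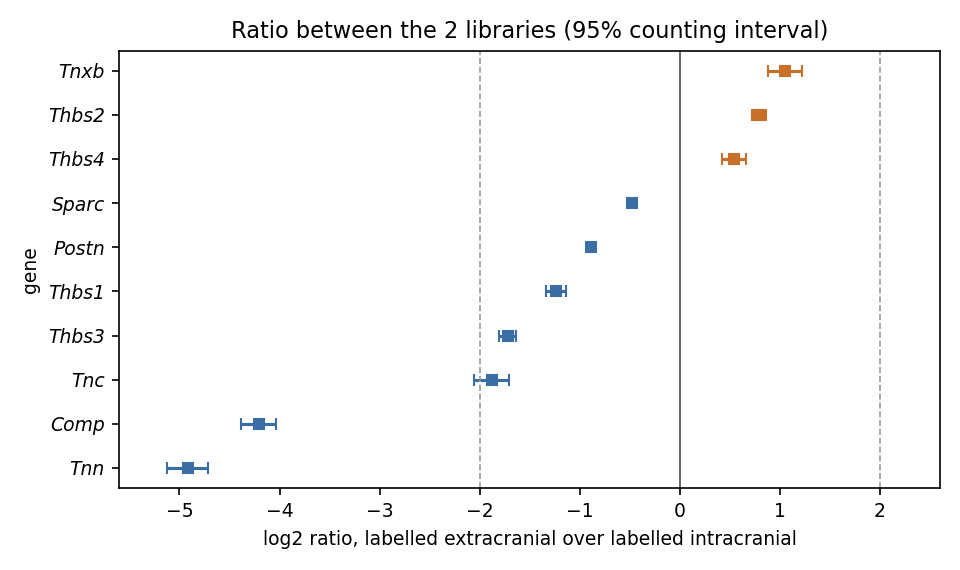
Log2 ratio of the extracranial-labelled library over the intracranial-labelled library for the 10 genes, with 95% counting intervals as bars, a solid line at 0 and dashed lines at 4-fold. Tnn (-4.92) and Comp (-4.21) lie wholly beyond the left dashed line, the interval of Tnc crosses it, and Tnxb, Thbs2 and Thbs4 lie to the right of 0.

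Levels of different genes were compared per kilobase of merged exon. The order in the intracranial-labelled library, in CPM per kb, was Sparc 625, Postn 164, Comp 62.8, Tnn 40.3, Thbs3 36.0, Thbs1 14.8, Thbs2 11.4, Thbs4 9.20, Tnc 5.93 and Tnxb 1.12. No neighbours in this order had overlapping counting intervals. In the extracranial-labelled library the order was Sparc 449, Postn 88.7, Thbs2 19.7, Thbs4 13.4, Thbs3 10.9, Thbs1 6.28, Comp 3.40, Tnxb 2.32, Tnc 1.61 and Tnn 1.34, and the intervals of the neighbours Tnc and Tnn overlapped. Sparc and Postn thus held the first places in both libraries, whereas Tnn went from place 4 to place 10 and Comp from 3 to 7. Among the 24321 genes that passed 3 counts in at least 1 library and had a length, Sparc stood at percentile 99.3 and 98.9 of level per kb, Postn at 97.4 and 96.1, Comp at 94.9 and 60.3, and Tnn at 92.8 and 46.0. With the longest protein-coding transcript as the length, Thbs3 came before Tnn in the intracranial-labelled library and before Thbs4 in the extracranial-labelled library, and the other places were the same.

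Relatives of the 10 genes outside the selection split in both directions. The lists below were written with earlier results of these libraries known and are described by their counts. Beside each count of called genes stands the share over all genes tested. It was 5.41% called higher in the intracranial-labelled library and 1.78% higher in the extracranial-labelled library. Of the 20 relatives (of 21) with enough counts, 4 were called higher in the intracranial-labelled library and 3 higher in the extracranial-labelled library, and their median log2 ratio was 0.02. Tnr, the remaining tenascin, known from the nervous system, had 2834 and 192 counts and a log2 ratio of -3.51 (-3.73 to -3.30), so it lay on the side of Tnn and Tnc. Sparcl1, a SPARC relative of vessels and stroma also known as hevin, went opposite to Sparc, with 1604 and 24781 counts and a log2 ratio of 4.33 (4.25 to 4.40), 20.1-fold. Sparcl1 made up 1.91% (1.82 to 2.01) and 35.2% (34.9 to 35.6) of the counts of Sparc and Sparcl1. The other called relatives were Spock2 (310 and 12 counts), Ibsp (186 and 15) and Fbln1 (506 and 57) on the intracranial side, and Spock3 (13 and 80) and Ccn3 (42 and 564) on the extracranial side. The abundant relatives Fstl1 and Ccn2 had log2 ratios of -0.18 and -0.01, Tgfbi, the nearest relative of periostin, 0.43, and Stab1 1.31.

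Receptors of these proteins were present in both libraries. Of 23 receptor genes tested, 4 were called higher in the intracranial-labelled library and 1 higher in the extracranial-labelled library, with a median log2 ratio of -0.15. Itgb5, which pairs with Itgav to bind periostin, had 4398 and 15867 counts (log2 ratio 2.23, 2.18 to 2.28), while Itgav had 11611 and 5433 (-0.72) and Itgb3 7569 and 6654 (0.19). Itgb1, the common integrin beta chain, differed little, with 26182 and 20603 counts and a ratio of 0.03. Sdc4, a syndecan through which tenascin-C acts on fibronectin adhesion, had 10266 and 1681 counts (-2.23). Ptprz1, a tenascin-binding phosphatase, had 206 and 10, and Lrp8, a receptor related to the Vldlr receptor of thrombospondin 1, 680 and 44. Itgb6, an epithelial integrin chain, had 81 and 0 counts. With the 0 set to the floor of 3 counts, Itgb6 was 20.8-fold higher in the intracranial-labelled library. The interval of its log2 ratio ended at -4.05. Cd47, the thrombospondin receptor, had 4292 and 2970 counts (-0.15), and Calr and Lrp1 lay at 0.34 and -0.25.

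Among matrix partners, 13 of 24 had an interval below 0, 7 above 0 and 4 across 0. Of the 24, 1 was called higher in the intracranial-labelled library and 2 higher in the extracranial-labelled library, with a median log2 ratio of -0.26. Fmod, a proteoglycan of tendon and ligament that binds collagen fibrils, had 31960 and 2144 counts (-3.52, -3.58 to -3.46). Dcn, a collagen-binding proteoglycan of fibroblasts, had 3745 and 21130 (2.87), and Col5a1, which sets fibril diameter, 711 and 2419 (2.14, 2.02 to 2.27). The call of Col5a1 was lost when called genes were left out of the library size. Col1a1, Col1a2 and Col3a1 had log2 ratios of -0.33, 0.48 and -0.29, and Ccdc80 and Col5a2 -0.57 and -0.09.

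TGF-beta and force-responsive genes, several of which lie upstream of Postn, Tnc and Thbs1, lay on both sides of 0, with 10 of 24 intervals below it, 8 above it and 6 across it. Of the 24, 1 was called, Ltbp1, with 5775 and 741 counts (-2.59), and the median log2 ratio was -0.03. Ltbp2 lay at 0.57, Prrx1 at -0.39, Tgfbr2 at 0.81 and Tgfb3 at 0.02. Of 14 proteases and inhibitors that act on tenascins and thrombospondins, Mmp3 (1207 and 30 counts, -4.95) and Mmp13 (1833 and 45, -4.97) were called higher in the intracranial-labelled library and 0 in the other direction, and the median was 0.35. The inhibitors Timp1 and Timp2 were abundant in both, with log2 ratios of 0.70 and 0.06.

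**Figure D4:**
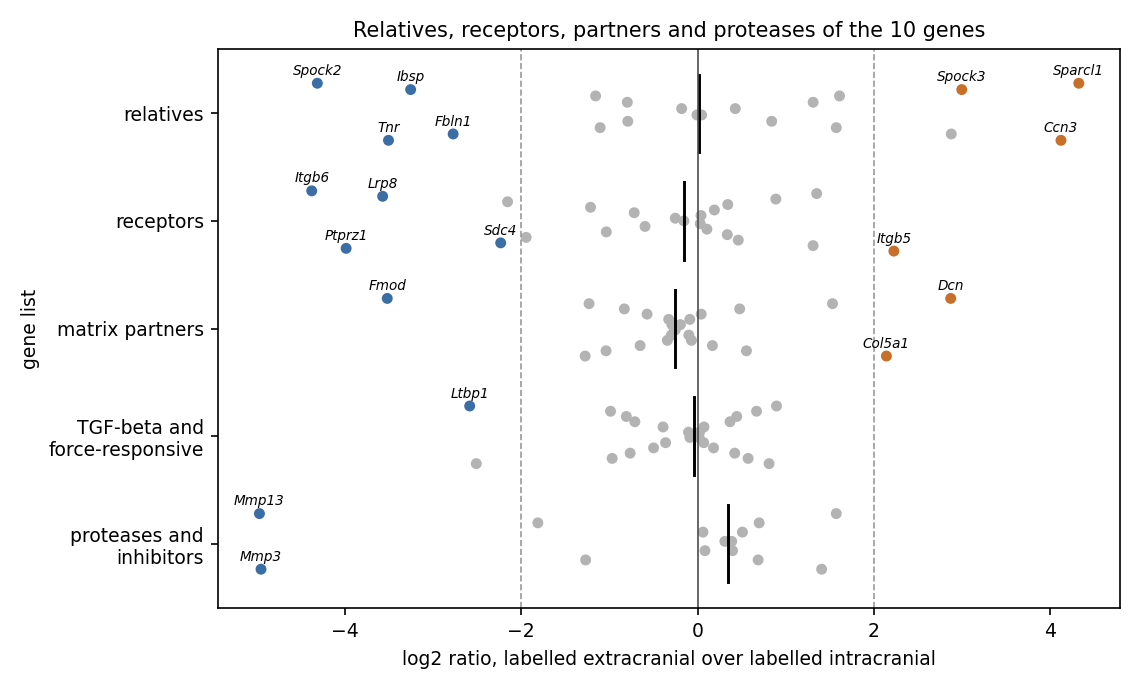
Log2 ratio of the extracranial-labelled library over the intracranial-labelled library for each tested gene of 5 lists around the 10 genes, with a black bar at the median of each list and dashed lines at 4-fold. Called genes are coloured (blue, higher in the intracranial-labelled library, and orange, higher in the extracranial-labelled library) and named, and the other genes are grey. A gene with 3 or fewer counts in 1 library is drawn with that count set to 3. The vertical offset within a list only separates points. The medians lie between -0.26 and 0.35, and the called relatives lie on both sides.

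Markers of tissues known to make these proteins were read beside them. Tendon and ligament genes summed to 168 and 154 CPM, with Kera at 0 in the intracranial-labelled library. Egr1, an early response gene of many cells, supplied 95.5 and 145 CPM of these sums. Of the 4 genes with enough counts 3 were lower in the extracranial-labelled library and 1, Egr1, was higher, and the list's median log2 ratio was -1.92. Mkx, a tendon transcription factor, had 2420 and 215 counts (-3.12), Chad 63 and 8, Scx 40 and 13, and Tnmd, the defining marker of mature tendon cells, 2 and 7. Cartilage genes summed to 35.0 and 30.4 CPM. Acan and Col2a1, which define cartilage, had 8 and 2 and 23 and 21 counts. Sox9 had 802 and 333, Hapln1 264 and 370, and Col11a2 111 and 81, and 0 of 5 cartilage genes with enough counts were called. Bone and tooth genes summed to 22.9 and 172 CPM, of which Dmp1 (29 and 3988 counts) alone supplied 0.835 and 149 CPM. Of the 8 genes, 2 were called higher in the intracranial-labelled library, Bglap (60 and 4 counts) and Ibsp (186 and 15). Dmp1 was the 1 called higher in the extracranial-labelled library. The defining genes Sp7 and Runx2 had 17 and 31 and 383 and 380 counts.

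Stromal markers were mixed. Fibroblast genes summed to 697 and 1606 CPM, with Lum (853 and 15309 counts) and Dcn called higher in the extracranial-labelled library, Cd34 (9297 and 1677) called higher in the intracranial-labelled library, and Pdgfra at -0.98. The interval of Cd34 (-2.17 to -2.02) lay close to 4-fold, and its call was lost under upper quartile scaling. Endothelial genes summed to 206 and 359 CPM, with 8 of 8 higher in the extracranial-labelled library and 0 called. Macrophage genes summed to 2267 and 6497 CPM, 7 of 8 higher in the extracranial-labelled library. Pericyte and smooth muscle genes summed to 168 and 252 CPM, with Kcnj8 and Abcc9 called in the extracranial direction and Cnn1 in the other. The call of Abcc9 (2.33, 2.03 to 2.64) was lost when called genes were left out of the library size. Platelet genes, a source of Thbs1, summed to 147 and 109 CPM, with Gp9 at 8 and 0 counts. Ppbp was called higher in the intracranial-labelled library (250 and 24 counts, -3.00), and Itga2b had 1524 and 567 (-1.05) and Pf4 3271 and 2275 (-0.15). Skeletal muscle genes summed to 44.5 and 9.45 CPM, with Myod1 at 0 in both libraries and Myh4 and Myog at 0 in the extracranial-labelled library. All 6 with enough counts were higher in the intracranial-labelled library, and Myh1 (243 and 2 counts), Myh4 (53 and 0) and Tnnt3 (476 and 42) were called. Schwann cell genes, a source of tenascins in nerve, summed to 67.8 and 118 CPM with Sox10 at 43 and 0 counts. Sox10 was called higher in the intracranial-labelled library and Egr2 (630 and 2396) higher in the extracranial-labelled library. Brain glia and neuron genes summed to 29.3 and 13.6 CPM, of which Snap25 supplied 23.9 and 7.44 CPM. Olig2 was at 0 in both and Aqp4 had 11 and 0 counts. Of the 6 with enough counts, 2 had an interval below 0, 1 above 0 and 3 across 0, and 0 were called. The part of any of these tissues in the values of the 10 genes was not tested.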

How the data were processed

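Poly(A) RNA of 2 fresh-frozen mouse tumors had been sequenced after directional library preparation. Per the labels, the authors checked reads with FastQC 0.11.9 and MultiQC 1.11, aligned them with STAR 2.7.9a to GRCm39 and made counts per Ensembl gene with featureCounts, and the deposited values are raw counts without normalization. The strand setting and the treatment of reads with several alignments were not given in the sources used here, so counts of overlapping genes are uncertain.

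Symbols, biotypes and exon lengths came from GENCODE mouse release 21 (52135 of 55416 IDs, 94.08%), an older build that also gave lengths and overlaps, and the order of neighbouring genes came from RefSeq. Counts were scaled with the TMM of edgeR 4.0.16 in R 4.3.3 (factors 1.006 and 0.994). Levels carry exact Clopper-Pearson intervals and ratios conditional exact binomial ones, computed with scipy 1.17.1. Counts of 3 or fewer (0.0863 and 0.112 CPM) were background and were set to 3 in ratios, and no ratio was given where both libraries were that low. Reads carried no molecular identifiers, so they are not independent molecules. Since 1 library per location leaves no residual degrees of freedom, the edgeR quasi-likelihood test could not be fitted, and no p-value was computed.

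The members and the 18 lists (201 genes, 200 matched) were chosen with earlier results of these data known. Named were all members and, of each list, called genes and up to 5 with the most counts. The procedure was tested on simulated data. Alternatives were other scalings, including DESeq2 1.42.0 size factors, other filters and fold limits, and other lengths. Sequences upstream of the genes are not reported here.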

Additional observations from a re-analysis of the deposited data

How the results depend on the processing

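The log2 ratios of the 10 genes kept their sign under all 5 alternative scalings or denominators, which shifted every ratio by 0.02 (DESeq2 size factors), -0.02 (total counts), 0.04 (upper quartile), -0.08 (library size without called genes) and -0.09 (over fibrillar collagen). Over fibrillar collagen, the summed tenascins had a log2 ratio of -2.69, the pentameric thrombospondins -1.96 and the trimeric thrombospondins -0.035. Without called genes in the library size, the pentameric sum was -1.95 and the trimeric sum -0.022. These shifts follow from the construction of each alternative. Tnn and Comp were called under every scaling. At a 2-fold limit, 5 of the 10 genes were called higher in the intracranial-labelled library, and over all genes 2147 and 1287 were, intracranial first, in place of 1190 and 391. Called on the point ratio alone, 1755 genes (7.99% of those tested) were higher in the intracranial-labelled library and 787 (3.58%) in the extracranial-labelled library. List medians near 0 changed sign, as relatives did to -0.06 without called genes and receptors to 0.03 with 100 or more counts, and the count of called matrix partners higher in the extracranial-labelled library went from 2 to 1 without called genes in the library size, as did that of pericyte and smooth muscle genes. The count of fibroblast genes called higher in the intracranial-labelled library went from 1 to 0 under upper quartile scaling. The longest-transcript length was added after seeing the data. No paired analysis was possible because there was only 1 library for each location, and for the same reason no library could be left out.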

Other observations

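Neighbours on the chromosome of the 10 genes, in the gene order of RefSeq, were read after their values were seen. Of the 20 flanking genes, 19 had enough counts, and 3 were called higher in the intracranial-labelled library and 1 higher in the extracranial-labelled library, where 5.41% and 1.78% of all genes tested were. Beside Tnn, 4930523C07Rik had 2086 and 348 counts (intracranial first, log2 ratio -2.21) and Mrps14, on the other side, 1308 and 1031 (0.03). Beside Tnc, Pappa, a protease of IGF-binding proteins, had 402 and 40 counts (-2.95). C4b, a complement gene next to Tnxb, had 2932 and 15420 (2.77), in the direction of Tnxb. Fat2, an epithelial cadherin gene next to Sparc, had 516 and 2 counts, a log2 ratio of -7.05 with the lower count set to 3. Both neighbours of Comp, Upf1 and Crtc1, had ratios of -0.31 and 0.53, so neither shared the 18.5-fold difference of Comp.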
